A study of Homo sapiens with 3 samples.

Results

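The genes described here code for the subunits of integrins and the chains of laminins, and they were taken by symbol from the annotation of the array: every symbol made of ITGA and a letter or number, ITGB with a number from 1 to 8, or LAMA, LAMB or LAMC with a number from 1 to 5. The rule used no measured value, and 37 of its genes are described, of 43316 on the array, namely 18 integrin alpha subunits, 8 integrin beta subunits and 11 laminin chains, covered by 56 of 58200 probes. Expression was measured in 3 human non-small cell lung cancer lines. H1975 is the osimertinib-sensitive parental line, which carries a mutated EGFR gene. OR1 and OR2 are osimertinib-resistant lines that the study selected from H1975 in separate flasks, with stepwise doses of osimertinib, an inhibitor of mutant EGFR, that reached 2 µmol/L over 4 months. All 3 lines were kept in the same serum-containing medium, and the sources used here do not say whether the drug was present when RNA was taken. Each line was measured on 1 Agilent single-colour array, and the 3 arrays lay on one slide, so no comparison below has a replicate check or a p-value, and a difference between lines cannot be told apart from a difference between cultures. The methods call OR1 and OR2 clones, so each may stand for 1 selected cell population.

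Integrins are receptors made of 1 alpha and 1 beta subunit that tie the cytoskeleton to the extracellular matrix, and the pairing decides which ligand is bound. Laminins are trimers of 1 alpha, 1 beta and 1 gamma chain that build the basement membrane under epithelia. Laminin-332, whose chains include LAMA3 and LAMB3, is the main epithelial anchoring laminin and is bound by integrins alpha3beta1 and alpha6beta4, the latter in hemidesmosomes. Laminin-511 and laminin-521, made of LAMA5, LAMC1 and either LAMB1 or LAMB2, are other laminins of lung basement membranes.

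Intensities are given on a scale made by dividing each array by the 75th percentile of its probes and multiplying by a constant common to the 3 arrays, so that ratios between lines can be read from the printed values. Each gene is represented by the probe with the highest mean level, and levels of different probes are not compared, because a probe's brightness also depends on its sequence. A gene was called higher in a resistant line at a ratio to H1975 of at least 2 and lower at a ratio of at most 0.5, the criteria of the study's methods, provided that the brighter side was well above background by the scanner software's own flag. Where the dimmer side was not well above background, the ratio is a bound against the lowest signal that was. The software's error estimate for a spot gave a median technical SD of 0.20 on the log2 scale for the ratio of a member to H1975, and the members spotted 10 times on each array, ITGAV and ITGB1, had SDs of 0.043 to 0.073 between spots. Neither covers the spread between cultures.

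The flag for signal above background was carried by 45.6% of probes for H1975, by 45.9% for OR1 and by 45.8% for OR2, and no spot was saturated. In these bulk RNA samples, fewer cells that express a gene and less of its RNA per cell cannot be told apart. The epithelial markers KRT7, KRT8, KRT18, KRT19, EPCAM and CDH1 were all well above background in every line. Their intensities summed to 377196 in H1975, to 162909 in OR1 and to 161847 in OR2, and 4 of the 6, KRT7, KRT19, EPCAM and CDH1, were called lower in both resistant lines. KRT8 had ratios of 1.12 in OR1 and 0.964 in OR2, and KRT18 had 0.884 and 0.806, so the difference did not extend to all 6. The sum is dominated by the brightest probes, with KRT7 at 126990 and KRT19 at 144774 in H1975. How far this difference in epithelial genes is part of the values below was not tested.

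Of the 37 subunit genes, 30 were well above background in at least 1 line and 22 in all 3. ITGA4, ITGA8, ITGAD, ITGAL, ITGAM, LAMA1 and LAMB4 were well above background in none. Among the 30, 8 genes or 26.7% were called lower in both OR1 and OR2, beside 6.32% of the 22417 genes compared over the whole array. These were the laminin chains LAMA3 and LAMB1, the beta subunits ITGB2, ITGB3, ITGB6 and ITGB7, and the alpha subunits ITGA2 and ITGAX. ITGA2, ITGAX and ITGB6 were well above background only in H1975, so they could be called lower or not at all. The same filter applied to the genes of the whole array. Among the 22 members well above background in all 3 lines, 5 were called lower in both. No share of all genes under that filter is given here. ITGA2 and ITGAX lost the call with another background correction (normexp), and ITGAX and LAMB1 with the median over a gene's probes in place of the brightest. Normexp was run with an offset of 50 added to every spot, which draws the ratios of dim genes toward 1. Unscaled intensities of ITGA2 and ITGAX in H1975, 42.7 and 44.8, lie below that offset, so this loss says little about their calls. Only LAMB2 was called higher in both lines, 1 of 30, where the share over all genes was 5.09%. Taken singly, OR1 had 9 members lower of 28 compared, where 9.58% of all genes were lower, and 2 higher, where 9.17% were higher. OR2 had 9 members lower of 29, beside 8.7% of all genes, and 1 higher, beside 7.72%. Because H1975 served both comparisons, the calls in OR1 and OR2 share the error of its array.

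The median log2 ratio to H1975 over the compared members, with bounds taken at their bound, was -0.56 in OR1 and -0.29 in OR2, where the median over all genes was 0.049 and -0.037. Over the 22 members well above background in all 3 lines it was -0.60 in OR1 and -0.33 in OR2, with 15 ratios below 1 in OR1 and 14 in OR2. These are 68.2% and 63.6% of the 22, beside 47.7% and 53.9% of all genes. The beta subunits had the lowest medians, -1.34 and -1.23. The laminin chains lay near the whole array, at 0.098 in OR1 and -0.015 in OR2, with strongly lower chains beside ratios near 1 and 1 strongly higher chain. Scaling on the spike-in control probes instead of the 75th percentile shifted the median of all genes in OR1 by -0.60 on the log2 scale and in OR2 by 0.076, so ratios near 1 in OR1 are read relative to the array as a whole.

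**Figure D1:**
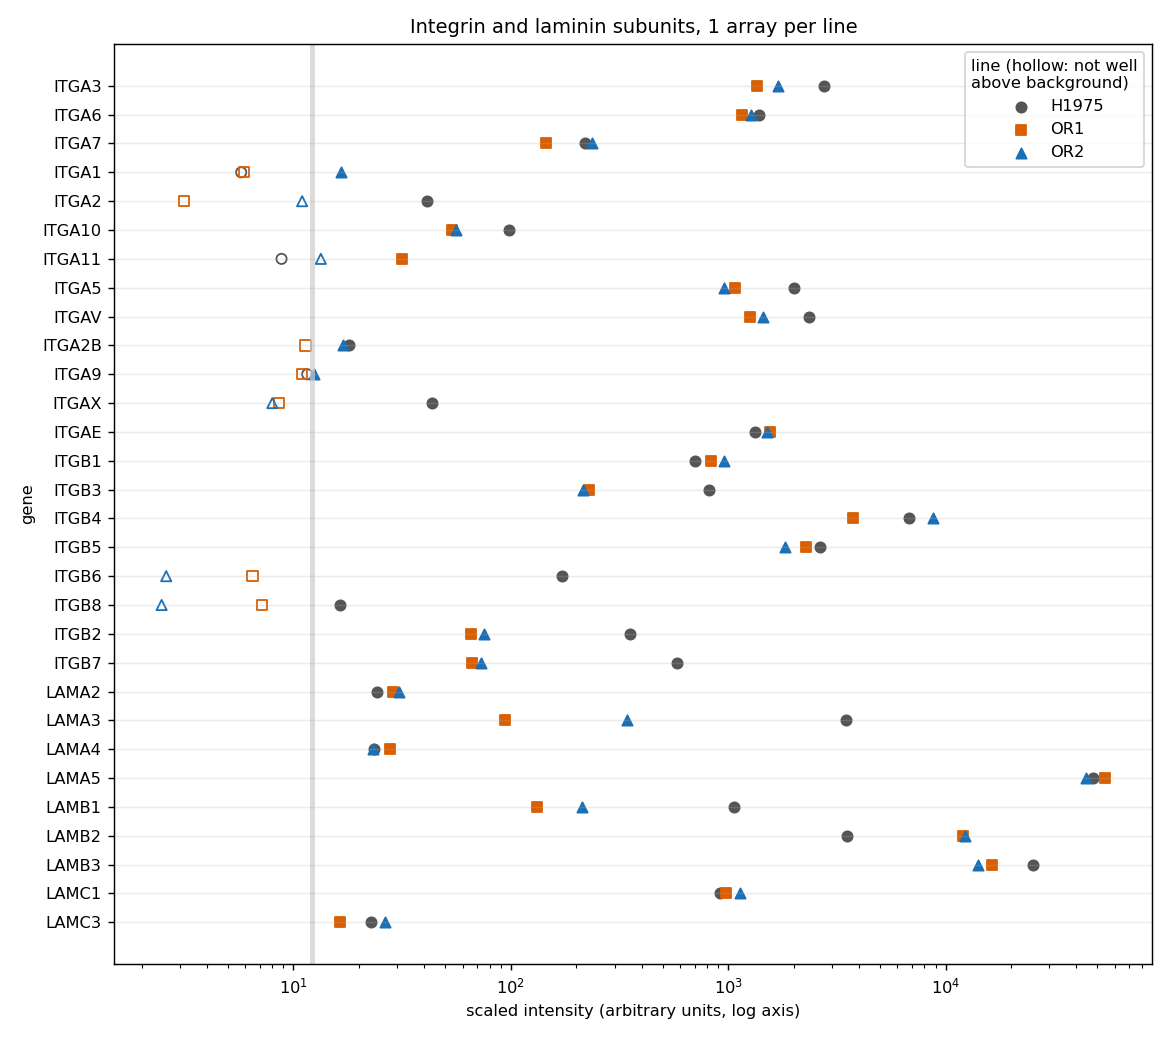
Scaled intensity of the 30 subunit genes that were well above background in at least 1 line, on a logarithmic axis in arbitrary units, with 1 point per line and hollow points for values not well above background. The grey band marks the lowest signals well above background on the 3 arrays (11.9 to 12.6). LAMA3, ITGB6 and ITGB7 of H1975 lie far to the right of both resistant lines, and LAMB2 lies to the left.

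The alpha chain of the epithelial laminin-332 was far lower in both resistant lines, whereas its beta chain was lower by less than the criterion. LAMA3, the alpha chain of this trimer, measured 3478 in H1975, 93.6 in OR1 and 342 in OR2, so its ratio to H1975 was 0.0269 in OR1 and 0.0983 in OR2. The ratio in OR1 was the lowest of those measured on both sides. LAMB3, the beta chain, measured 25220.4 in H1975, 16407 in OR1 and 14070.3 in OR2, giving ratios of 0.651 and 0.558, which passed no call. Both resistant lines thus lay below H1975 for both chains, and by unequal factors.

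The other measured beta chains lay on opposite sides of H1975. LAMB1, the beta chain of laminin-511, measured 1059 in H1975, 132 in OR1 and 211.5 in OR2, or 0.124 and 0.200 of the parental value. LAMB2, which takes the same place in laminin-521, measured 3504 in H1975, 12051 in OR1 and 12339.6 in OR2, with ratios of 3.44 and 3.52. The resistant lines differed from each other in LAMB2 by a ratio of 1.02, and its ratio in OR1 was 2.28 with spike-in scaling. LAMC1, the gamma chain that both trimers share, stayed near the parental value at 915 in H1975, 979 in OR1 and 1128 in OR2, although its ratio of 1.07 in OR1 became 0.708 with spike-in scaling. The probe of LAMB2 lies at chr3:49158584-49158643 in hg19.

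LAMA2, LAMA4 and LAMC3 passed no call in either line, and LAMA5, whose probes gave different ratios, is described with the probe pairs. LAMA2 and LAMA4, alpha chains best known from muscle and from vessels, were dim, with intensities of 23.3 to 30.6 in the 3 lines. Their ratios were 1.18 and 1.26 for LAMA2 in OR1 and OR2, and 1.18 and 0.990 for LAMA4, with technical SDs of 0.28 to 0.34 on the log2 scale. LAMC3, a gamma chain of rarer laminins, measured 22.6 in H1975, 16.4 in OR1 and 26.3 in OR2, ratios of 0.725 and 1.16. The largest difference among these dim chains, that of LAMC3 between OR2 and OR1, was a ratio of 1.60, or 0.68 on the log2 scale with a technical SD of 0.37. The 2 ratios of 1.18 in OR1 fell to 0.782 for LAMA2 and 0.780 for LAMA4 with spike-in scaling.

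The 250 bases before the listed RefSeq transcription start are printed for the diverging chains LAMA3, LAMB1 and LAMB2. These members were called in both lines and have 1 start in the promoter table used here (GRCh38.p14). A gene may have other starts that this table does not list, and which start the lines used was not tested. The printed stretches were chosen after the values were seen. Each reads 5′ to 3′ on the gene's strand and ends at the base before the start, and capitals mark matches on either strand to the letters of 5 motifs. The letters searched were TGANTCA for AP-1, CACCTG for the E-box that Snail and ZEB repressors bind, GGAATG for TEAD factors, GGGCGG for the GC box and TATAAA for the core of the TATA box. The LAMA3 stretch lies at chr18:23872770-23873019 on the plus strand, that of LAMB1 at chr7:108003162-108003411 on the minus strand, and that of LAMB2 at chr3:49133051-49133300 on the minus strand.
LAMA3: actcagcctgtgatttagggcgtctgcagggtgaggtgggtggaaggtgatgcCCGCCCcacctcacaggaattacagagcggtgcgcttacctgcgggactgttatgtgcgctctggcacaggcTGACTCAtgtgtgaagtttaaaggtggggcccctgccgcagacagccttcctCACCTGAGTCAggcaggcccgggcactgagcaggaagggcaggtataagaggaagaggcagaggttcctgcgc
LAMB1: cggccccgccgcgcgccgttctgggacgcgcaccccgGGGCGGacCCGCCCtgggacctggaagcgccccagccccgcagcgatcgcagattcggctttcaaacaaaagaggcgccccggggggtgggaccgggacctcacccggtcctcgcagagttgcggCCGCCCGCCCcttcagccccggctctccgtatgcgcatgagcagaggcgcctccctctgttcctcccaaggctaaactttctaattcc
LAMB2: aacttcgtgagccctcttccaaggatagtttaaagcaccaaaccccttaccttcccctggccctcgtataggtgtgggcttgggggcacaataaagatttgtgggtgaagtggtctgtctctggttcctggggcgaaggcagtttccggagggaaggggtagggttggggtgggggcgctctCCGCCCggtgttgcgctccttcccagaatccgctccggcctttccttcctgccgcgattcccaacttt

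The LAMA3 stretch held 2 AP-1 matches, at 125 to 119 and at 69 to 63 bases before the start, and an E-box match at 73 to 68 whose last 2 bases are the first 2 of the nearer AP-1 match, which is why they run together in the print. AP-1 letters occurred in 6.57% of the 35116 starts of the table and E-box letters in 17.5%. LAMB1 held 4 GC box matches, of which 2 overlap, and LAMB2 held 1, letters found in 42.6% of starts. Neither held a match to the other motifs. Of the 37 members 26 were in the table with 33 starts, and of these starts 2 held the AP-1 letters, 8 the E-box, 4 the TEAD letters (11.9% of all starts), 17 the GC box and 2 the TATA box (10.7%). A match describes the letters in this window and not a bound site.

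**Figure D2:**
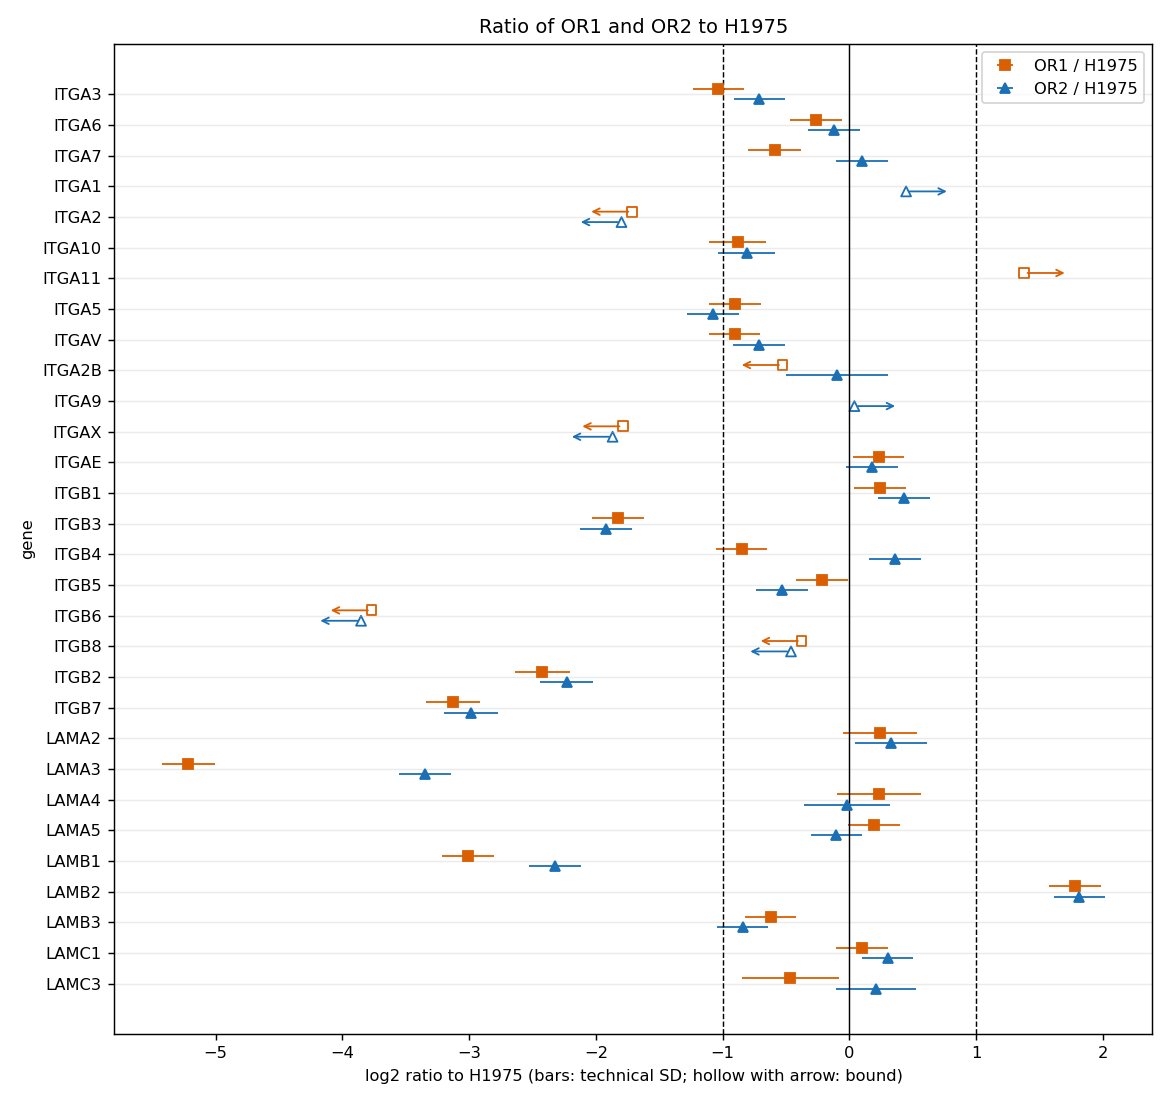
Log2 ratio of OR1 (squares) and OR2 (triangles) to H1975 for the 30 members above background in at least 1 line; bars are the technical SD of the scanner software, hollow points with arrows are bounds, and dashed lines mark ratios of 0.5 and 2. A line's point is absent where no ratio could be formed. LAMA3, LAMB1, ITGB6, ITGB7, ITGB2, ITGB3, ITGA2 and ITGAX lie left of -1 in both lines. LAMB2 lies right of 1 in both, and ITGB4 lies on opposite sides of 0.

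Of the 8 beta subunits, 4 were called lower in both resistant lines, and ITGB1, ITGB4, ITGB5 and ITGB8 passed no call against H1975. ITGB6, the epithelial partner of ITGAV that activates latent TGF-beta, measured 171 in H1975 and was not well above background in OR1 (6.48) or OR2 (2.60), which bounds its ratio at no more than 0.0733 and 0.0692. With normexp, whose offset draws dim values together, these bounds were 0.315 and 0.286. ITGB3, another partner of ITGAV and a receptor of vitronectin, measured 813 in H1975, 229.9 in OR1 and 215 in OR2, with ratios of 0.283 and 0.264. ITGB8, a further activator of TGF-beta, was barely above background in H1975 at 16.3 and was at 7.18 in OR1 and 2.47 in OR2, so its ratio is bounded only at 0.770 and 0.727. Both lines thus lay below H1975 for ITGB6 and ITGB3. ITGB8 was too close to background to be placed, with technical SDs of 0.62 in OR1 and 1.47 in OR2 on the log2 scale. ITGB5, a further partner of ITGAV, measured 2642 in H1975, 2274 in OR1 and 1828 in OR2, ratios of 0.861 and 0.692 that passed no call. ITGAV itself measured 2362, 1261 and 1443 in the same order, ratios of 0.534 and 0.611.

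ITGB1, the common partner of most alpha subunits, measured 705 in H1975, 833 in OR1 and 953 in OR2. Ratios to H1975 were thus 1.18 and 1.35, within the criterion, and the one in OR1 became 0.782 with spike-in scaling. ITGB4, the hemidesmosomal partner of ITGA6, measured 6783 in H1975, 3764 in OR1 and 8727 in OR2. It was thus below H1975 in OR1 (ratio 0.555) and above it in OR2 (ratio 1.29), neither of which passed the criterion.

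ITGB2 and ITGB7, which are best known as leukocyte subunits, were well above background in all 3 lines and were called lower in both resistant ones. ITGB2, the shared beta subunit of LFA-1 and Mac-1, measured 353 in H1975, 65.8 in OR1 and 75.1 in OR2, ratios of 0.187 and 0.213. ITGB7, which pairs with ITGA4 or ITGAE, measured 579.7 in H1975, 66.5 in OR1 and 73.3 in OR2, ratios of 0.115 and 0.126. OR1 and OR2 lay close together for both genes. Of their alpha partners, ITGAX was at 43.3 in H1975 and not well above background in OR1 (8.58) or OR2 (8.0), which bounds its ratio at 0.290 and 0.274. ITGAE, the partner that binds E-cadherin, was at 1331 in H1975, 1564 in OR1 and 1509 in OR2, with ratios of 1.17 and 1.13, the former 0.777 with spike-in scaling. ITGAL, ITGAM, ITGAD and ITGA4 were not well above background in any line.

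Leukocyte markers were read beside these subunits. Of 7 marker genes, H1975 had 5 well above background, OR1 had 4 and OR2 had 5, and their intensities summed to 1797, 2429 and 2543 in this order. CD14, a monocyte antigen, was at 255, 1084 and 1673, and the sum of the other 6 was 1542, 1345 and 870.5. PTPRC, the gene of the pan-leukocyte antigen CD45, was dim at 20.3, 22.8 and 19.3, and CD3E, the T cell receptor component, was well above background in none. LCP1, an actin bundler of leukocytes that carcinoma lines can also express, was at 74.9 in H1975 and not well above background in the resistant lines. CD79A, a B cell receptor component, was at 1318, 1238 and 748 and made up most of the sum without CD14 in each line. CORO1A, an actin regulator of leukocytes, was at 122, 66.3 and 80.6, and SPI1 was well above background only in OR2, at 16.6. Of 4 platelet markers only GP9 was well above background, at 25.5, 31.7 and 20.9. Of 5 fibroblast markers, H1975 had 2 well above background, OR1 had 3 and OR2 had 1, with sums of 646, 751 and 94.9, and endothelial markers for 3 of 4 in each line, with sums of 89.0, 111 and 101. All 3 samples were cultured cell lines, and how the expression of these markers relates to the subunit values was not tested.

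The promoters of ITGB6 and ITGB7, 2 of the beta subunits called lower in both lines, are printed in the same way as those above. The ITGB6 stretch lies at chr2:160200273-160200522 and that of ITGB7 at chr12:53207252-53207501, both on the minus strand of GRCh38.p14.
ITGB6: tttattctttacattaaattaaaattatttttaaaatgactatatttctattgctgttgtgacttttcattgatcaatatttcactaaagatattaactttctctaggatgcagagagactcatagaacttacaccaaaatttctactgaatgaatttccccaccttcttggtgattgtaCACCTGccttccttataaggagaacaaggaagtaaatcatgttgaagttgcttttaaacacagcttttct
ITGB7: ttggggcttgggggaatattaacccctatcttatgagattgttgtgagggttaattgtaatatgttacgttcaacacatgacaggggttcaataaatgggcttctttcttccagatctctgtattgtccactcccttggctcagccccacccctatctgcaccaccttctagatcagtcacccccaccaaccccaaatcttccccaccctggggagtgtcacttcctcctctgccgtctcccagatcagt
ITGB6 held 1 match, an E-box at 70 to 65 bases before the start, and ITGB7 held none to the 5 motifs. The stretches differed in base composition, with a GC content of 49.6% for ITGB7, 58.4% for LAMB2, 60.4% for LAMA3 and 70.4% for LAMB1, and the lowest for ITGB6.

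Among the alpha subunits no gene was called higher in both resistant lines. The laminin receptors were lower or near the parental value. ITGA3, which pairs with ITGB1 to bind laminin-332, measured 2773 in H1975, 1356 in OR1 and 1696 in OR2, so that it passed the criterion in OR1 (ratio 0.489) and not in OR2 (0.612). The call in OR1 was lost with quantile normalization (0.511) and with the authors' normalized intensities (0.510). ITGA6, which pairs with ITGB1 or ITGB4, measured 1393, 1159.7 and 1279 in the same order, ratios of 0.833 and 0.919. ITGA7, a laminin receptor of muscle, was at 219 in H1975, 146 in OR1 and 236 in OR2, ratios of 0.665 and 1.07. The log2 ratios of ITGA6, -0.26 and -0.12, were small beside the criterion and close to the technical SD of 0.20.

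Of the collagen receptors, ITGA2, which binds collagen with ITGB1, was at 41.2 in H1975 and not well above background in OR1 (3.13) or OR2 (11.0), a ratio of at most 0.305 and 0.288. Its neighbour ITGA1, whose probe lies 140 kb away on chromosome 5, was well above background only in OR2, at 16.6 beside 5.75 in H1975 and 5.93 in OR1, with a ratio to H1975 of at least 1.36. ITGA10, a receptor of cartilage, was at 98.2 in H1975, 53.4 in OR1 and 56.0 in OR2, ratios of 0.543 and 0.570. ITGA11, a receptor of fibroblasts, was well above background only in OR1, at 31.6 beside 8.82 in H1975 and 13.4 in OR2, which is at least 2.60 times H1975. This call was lost with spike-in scaling (1.72) and with normexp (1.27), whose offset leaves a gene this dim little room to pass. ITGA2 and ITGA10 were thus lowest in the resistant lines, whereas ITGA1 and ITGA11 were each measured in a single resistant line.

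Of the receptors for ligands with an RGD motif, ITGA5, the fibronectin receptor subunit, measured 2009 in H1975, 1074 in OR1 and 952 in OR2. It passed the criterion in OR2 with a ratio of 0.474 and missed it in OR1 with 0.534, and both sides of this turned on the processing. In OR1 the ratio passed with median scaling (0.496), no scaling (0.469) and spike-in scaling (0.354), as that of ITGAV did, and in OR2 normexp gave 0.501, which passed no call. ITGA2B, the platelet fibrinogen receptor subunit, was near background at 18.1 in H1975, 11.4 in OR1 and 16.9 in OR2. That bounds the OR1 ratio at 0.694, and the OR2 ratio was 0.934. Outside this group, ITGA9, which pairs with ITGB1 and binds tenascin, reached only 12.5 in OR2. It was at 11.6 in H1975 and 11.0 in OR1, not well above background, so its ratio in OR2 is bounded at 1.03 or more. Over both lines ITGA5, ITGAV and the laminin receptor subunit ITGA3 had ratios of 0.474 to 0.612. This was a smaller difference than that of the beta subunits ITGB3 and ITGB6.

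Set directly against each other, OR2 and OR1 differed by the criterion in 3 of 26 compared members. LAMA3 was higher in OR2 than in OR1 by a ratio of 3.65 and ITGB4 by 2.32, 2 genes where 2.48% of all genes were higher by this criterion. ITGA11 was lower in OR2, at most 0.424 of OR1, 1 gene where 2.89% of all genes were lower. That call was lost with spike-in scaling (0.675) and normexp (0.781), and the call of LAMA3 with the median over probes (1.99). LAMA3 and ITGB4, a chain of laminin-332 and a subunit of its hemidesmosomal receptor, differed in position, OR2 lying between OR1 and H1975 for LAMA3 and above both for ITGB4. LAMB1 had a ratio of 1.61 between OR2 and OR1, which became 2.56 with spike-in scaling and turned to 0.587 with the median over probes.

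Of the 14 members with more than 1 probe, 5 had a second probe above background, and for 3 of these the probes gave different ratios. The second probes of LAMB2 and ITGA6 gave nearly the same ratios as the brightest, 3.51 and 3.76 for LAMB2 in OR1 and OR2, and 0.789 and 0.952 for ITGA6. For LAMA3 the second probe, annotated to a non-coding transcript, measured 86.4 in H1975, 63.3 in OR1 and 68.5 in OR2, with ratios of 0.733 and 0.792 where the brightest probe had 0.0269 and 0.0983. For LAMB1 the second probe measured 95.5, 92.0 and 54.0, with ratios of 0.963 and 0.566 where the brightest had 0.124 and 0.200. The second probes of LAMA3 and LAMB1 thus passed no call.

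LAMA5, the alpha chain of laminin-511 and laminin-521, had probes that differed on the call itself. Its brightest probe, annotated to an Ensembl transcript, measured 47425 in H1975, 54293 in OR1 and 44227 in OR2, ratios of 1.14 and 0.933. Its other probe, annotated to the RefSeq mRNA, measured 273 in H1975, 618 in OR1 and 761.5 in OR2, ratios of 2.27 and 2.79, which would pass the criterion in both lines. The choice of the brightest probe therefore leaves LAMA5 without a call, and which probe reads the LAMA5 mRNA was not tested.

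For the 3 genes whose probes gave different ratios, the first 30 of the 60 bases of each probe are printed, as the deposited files give them, with hg19 positions of the whole probe. The LAMA5 probes lie at chr20:60920556-60920615 (brightest) and chr20:60885302-60885361, those of LAMA3 at chr18:21534735-21534794 (brightest) and chr18:21375992-21376051, and those of LAMB1 at chr7:107564411-107564470 (brightest) and chr7:107643398-107643457. Exon or intron positions were not used here, as no annotation of that build was at hand.
LAMA5, brightest probe: tgatgtgtgcctgtagttcgagctactccg
LAMA5, other probe: caggagctacactgcctgatgtgggcctgg
LAMA3, brightest probe: tctaattttgaattctgaccatggataccc
LAMA3, other probe: agtgaaaaggtggccatctacaagccagaa
LAMB1, brightest probe: agactggaaggagaagtccgttcactccta
LAMB1, other probe: ttgaacatttgccttttttcccctcctttc

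**Figure D3:**
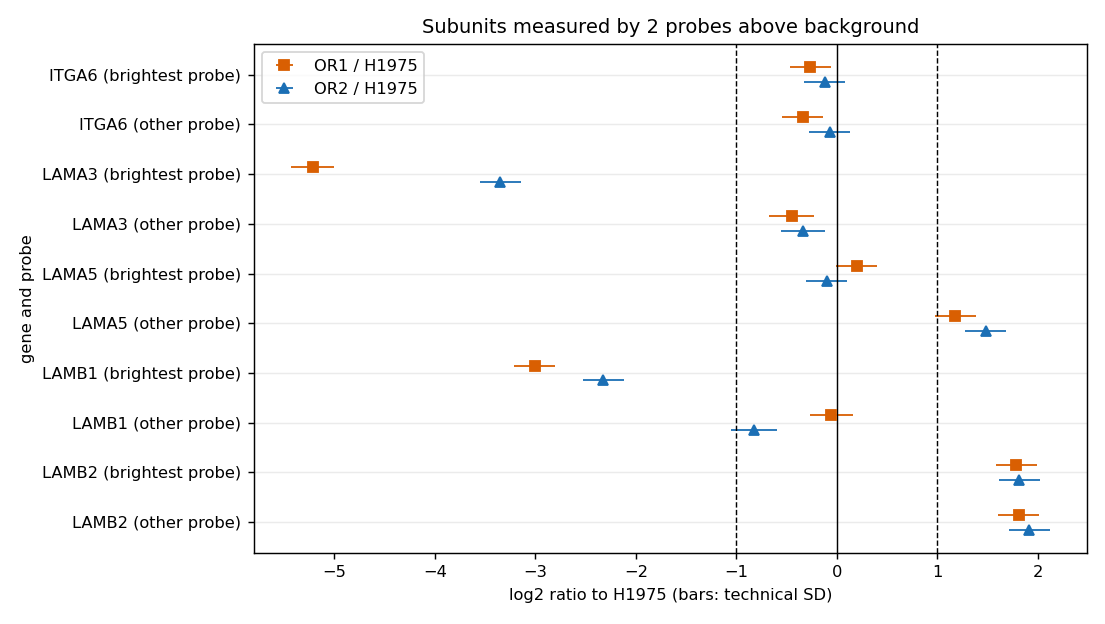
Log2 ratio of OR1 (squares) and OR2 (triangles) to H1975 for each probe of the 5 members with a second probe above background; bars are the technical SD and dashed lines mark ratios of 0.5 and 2. The pairs of ITGA6 and LAMB2 lie together, whereas those of LAMA3, LAMA5 and LAMB1 lie apart.

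Other genes of the adhesion pathway were read from 3 lists. Of 31 integrin adaptors and plaque proteins, 29 were well above background, and 2 were called higher in both lines and 1 lower, beside 5.09% and 6.32% of all genes. TNS2, a tensin that links integrin tails to actin, had ratios of 2.45 in OR1 and 2.84 in OR2, and TGFB1I1, the paxillin relative Hic-5, had 3.56 and 2.33. TNS4, a tensin without an actin-binding region, measured 1349 in H1975, 69.6 in OR1 and 80.1 in OR2, ratios of 0.0516 and 0.0594. The median log2 ratio of the list was 0.094 in OR1 and 0.047 in OR2, close to that of all genes.

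Of 17 partners in hemidesmosomes and basement membranes, 16 were above background, and 1 was called higher in both lines and 3 lower, beside the same shares of all genes. HSPG2, the basement membrane proteoglycan perlecan, had ratios of 2.88 and 2.39. SMOC2, a matricellular protein, measured 446 in H1975 and was not well above background in OR1 or OR2, a ratio of at most 0.0281 and 0.0266. NTN4, a laminin-related netrin, measured 699.8, 117 and 159, and BCAM, a receptor of LAMA5, was at 33.7, 13.5 and 14.8. The median log2 ratio of this list was -0.31 in OR1 and -0.48 in OR2. Of 25 other integrin ligands, 17 were above background. ICAM1, the ligand of ITGB2 integrins, and CTGF were called higher in both lines and none lower, beside the same shares of all genes. Taken singly, OR1 had 4 ligands higher and 0 lower, beside 9.17% and 9.58% of all genes. OR2 had 2 higher and 2 lower, beside 7.72% and 8.7%. The median log2 ratio of these ligands was 0.36 in OR1 and -0.033 in OR2. ICAM1 had ratios of 3.77 and 3.33, and CTGF had 3.68 and 2.41. One of these ligands, VWF, is also among the endothelial markers.

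**Figure D4:**
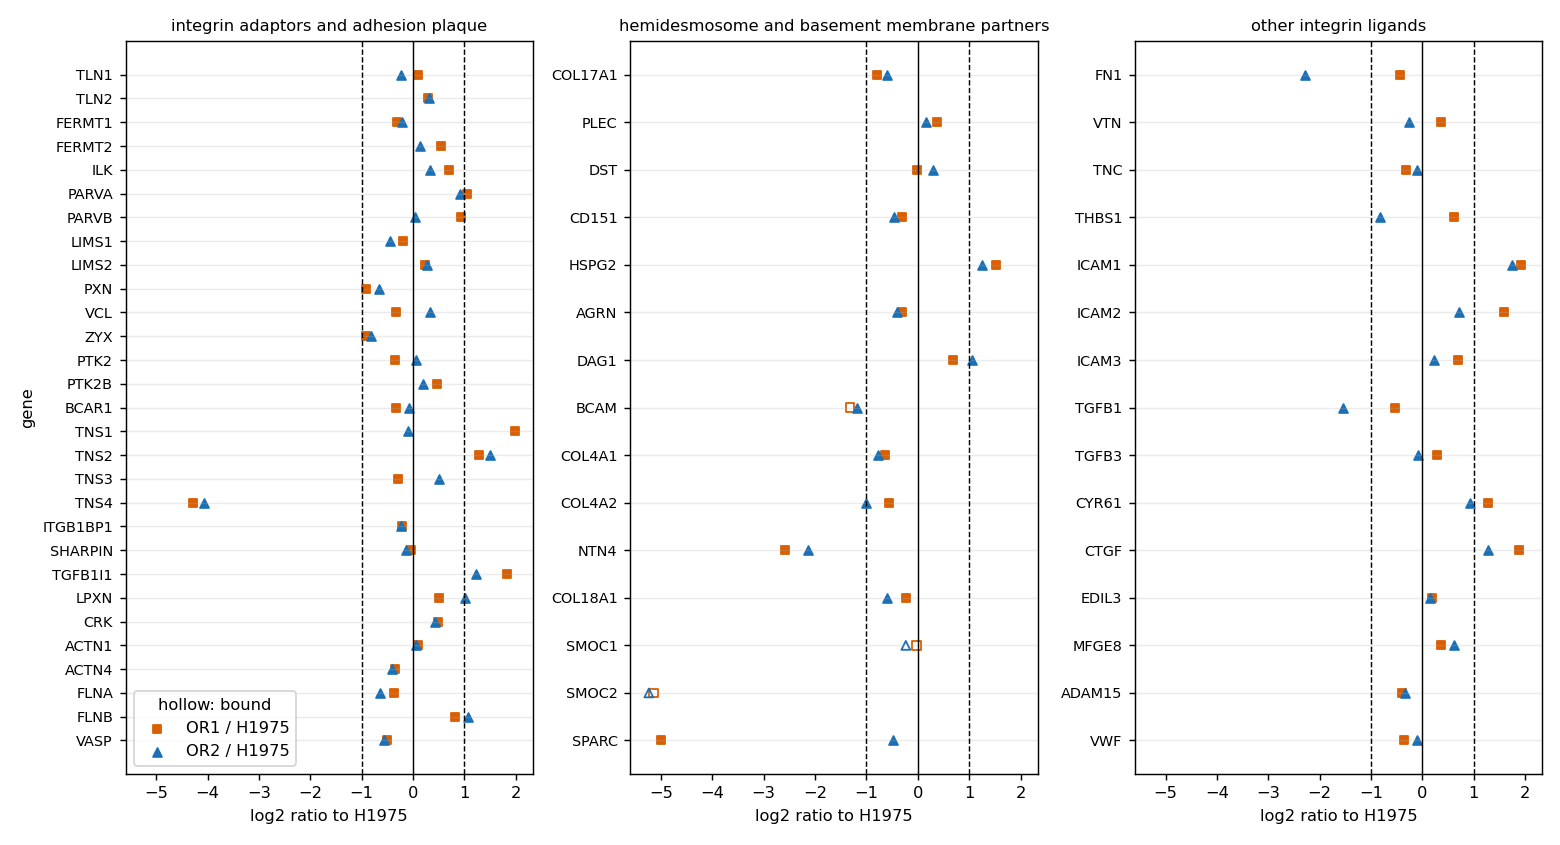
Log2 ratio of OR1 (squares) and OR2 (triangles) to H1975 for genes of 3 adhesion lists with a ratio in both lines, 1 row per gene. Hollow points are bounds, and dashed lines mark ratios of 0.5 and 2. TNS4, SMOC2, NTN4 and BCAM lie left of -1 in both lines, and TNS2, TGFB1I1, HSPG2, ICAM1 and CTGF lie right of 1 in both.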

How the data were processed

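Total RNA of H1975, OR1 and OR2 was labelled with Cy3 and hybridized by the authors to 1 array per line. The deposited scanner files hold spot intensity from Agilent Feature Extraction (version 10.7.1.1 per the file headers, 9.5.1.1 in the submitters' processing notes), corrected for background and not scaled between arrays. A second deposited table holds the authors' normalized intensity per probe, by a method not named in the sources used here. The members and lists were chosen with earlier results of these data known, and 1 gene that the rule covers is not reported here and enters no count of members.

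Control spots and outlier spots were left out, log2 spot values were averaged per probe, and each array's 75th percentile was subtracted, with Python 3.11.15, numpy 2.4.6 and pandas 2.3.3. A probe was well above background when most of its kept spots carried the software's flag. That percentile stood at an intensity of 157 for H1975, 138 for OR1 and 162 for OR2, over 60901 spots per array. Precision is limited by the number of arrays, and with 1 per line no test was made. Every member above background was named with its values, and of each pathway list at most 6 genes past the criterion in both lines. The calling steps were also run on simulated data with planted changes far past the criterion. That run held no bounds and no planted ratio near the criterion, so it does not bear on such calls. There were 13 alternatives, in scaling, background correction (limma 3.58.1 normexp, offset 50), filters, probe choice and ratio. Of the 50 member probes with a RefSeq accession, 50 matched the RefSeq table with the same symbol. Promoter sequences are RefSeq's (GRCh38.p14), and probe positions (hg19) and probe sequences are from the deposited files.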

Additional observations from a re-analysis of the deposited data

Results flagged for a closer look

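ITGB4 lay below H1975 in OR1, with a ratio of 0.555, and above it in OR2, with a ratio of 1.29, so that the 2 resistant lines differed from the parental line in opposite directions. The difference was not tested, since each line has 1 array.

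The less bright probe of LAMA5, which the comparisons above do not use, gave ratios to H1975 of 2.27 in OR1 and 2.79 in OR2, above the criterion in both lines, where the brightest probe gave 1.14 and 0.933.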

How the results depend on the processing

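Ratios of single genes were recomputed under 11 of the 13 alternatives, all but the other ratio criteria, and none that had been called changed its direction. Of 878 single-gene values 756 moved by less than the technical SD and 122 by more, 49 of them with spike-in scaling, and 34 lay on the other side of 1. LAMB2 was higher in both lines under every alternative except a ratio of 4. Among the 8 genes lower in both lines, normexp lost ITGA2 and ITGAX, background on all 3 arrays lost these and ITGB6 and left 5, the median over probes lost ITGAX and LAMB1, and median, no or spike-in scaling added ITGA5. A ratio of 4 lost ITGA2, ITGAX and ITGB3. For the counts in this section no share of all genes under the same alternative is given. They therefore do not separate the members from a change over the whole array. Spike-in scaling, which lowers OR1 as a whole, gave 1 member higher and 17 lower in OR1, 7 differing between OR1 and OR2, and a median log2 ratio of -1.15 in OR1. Normexp gave 1 higher and a median of -0.33 in OR1, with ratios of dim genes drawn toward 1 by its offset. Requiring all 3 arrays gave 1 higher in OR1. Without the background filter 2 were higher in OR2, 10 differed between the lines, and the median in OR1 was -0.26. A ratio of 4 left 0 higher in both, in OR1 or in OR2, 5 lower in both, 5 lower in OR1, 5 lower in OR2 and 0 between the lines, and a ratio of 1.5 gave 13 lower in both, 15 lower in OR1 and 6 between the lines. Apart from these constructions, the cause was not tested. No paired analysis was possible because each line has 1 array. Values near background are limited by signal, as for ITGA1, ITGA9, ITGA11, ITGA2B and ITGB8.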
